A study of Hyphopichia burtonii and Hyphopichia pseudoburtonii with 16 samples.

Results

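Trehalose and glycogen are the sugars that yeasts store and mobilise, and the genes described here encode the enzymes that make and break them in the yeasts Hyphopichia pseudoburtonii and Hyphopichia burtonii under salt. The genes were taken by name (TPS1, TPS2, GPH1) or by the annotated product (trehalase, glycogen synthase, glycogen branching enzyme). This found 12 genes of 12015 in all, 6 of 5900 in H. pseudoburtonii and 6 of 6115 in H. burtonii, with 1 gene for each enzyme in each species. RNA was sequenced from wild-type H. pseudoburtonii (strain KJS14) and H. burtonii (strain KJJ43), which come from Nuruk, a starter of Korean rice fermentations. YPD broth cultures were sampled at 0 min, then received the same volume of YPD with 2 M NaCl, which gives 1 M, and were sampled at 5, 15 and 30 min. Each species and time has 2 libraries, 16 in all. Salt arrived together with fresh medium, so effects of the one and the other cannot be told apart. Each species is represented by 1 strain and its own series of library numbers, so species and library series cannot be told apart in the levels. The origin of the 2 libraries of a time, from separate cultures or from one, was not given in the sources used here. The p-values cover only the spread between libraries, which may be technical.

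Trehalose is made in yeasts in a pair of steps. TPS1 joins UDP-glucose and glucose-6-phosphate to trehalose-6-phosphate, TPS2 removes the phosphate, and a neutral trehalase cleaves trehalose back to glucose. Glycogen chains are started by glycogenin, lengthened by glycogen synthase from UDP-glucose and branched by GLC3, and they are taken down by the phosphorylase GPH1 together with the debranching enzyme GDB1. In Saccharomyces cerevisiae trehalose protects proteins and membranes under heat and drying, and both sugars accumulate when growth slows.

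The values are FPKM, fragments per kilobase of gene scaled to the sequencing depth, as deposited by the authors. FPKM summed to between 1259069 and 1467425 per library in H. pseudoburtonii and between 1367737 and 1498017 in H. burtonii. Read counts are not used here, and a rough estimate of relative depth from the lowest values ran from 0.267 to 1 in H. pseudoburtonii and from 0.464 to 1 in H. burtonii. By that estimate the 0 min libraries were the deepest of H. pseudoburtonii (0.974 and 1) and the shallowest of H. burtonii (0.541 and 0.464), and the part of depth in the changes of low genes was not tested. Across genes the 2 libraries of a time correlated at r from 0.924 to 0.979 in H. pseudoburtonii and from 0.957 to 0.99 in H. burtonii. The actin gene ACT1 lay between 1530 and 2048 FPKM in the libraries of H. pseudoburtonii and between 1408 and 2056 in those of H. burtonii. A gene is said to have risen or fallen where limma on log2(FPKM + 1) gave an adjusted p under 0.05 (Benjamini and Hochberg over all genes tested), and log2 changes are on that scale, which understates the changes of low genes. The median change of all tested genes at 5, 15 and 30 min was 0.12, 0.10 and 0.39 in H. pseudoburtonii and 0.07, 0.39 and 0.56 in H. burtonii, so changes are also given relative to this median. The changes at the 3 later times share their 0 min libraries.

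Before the salt medium was added, TPS1 and TPS2 had overlapping levels in the species, while the glycogen genes and the trehalase gene were lower in both libraries of H. pseudoburtonii. FPKM are per length, so levels of the genes can be set beside each other. In H. pseudoburtonii at 0 min, TPS1 averaged 353 ± 34.3 FPKM (SD, n = 2) and TPS2 averaged 232 ± 4.88, and in H. burtonii TPS1 averaged 357 ± 139 and TPS2 averaged 213 ± 41.8. These means were above those of 91.9 and 87.7 percent of all genes of H. pseudoburtonii and of 91.3 and 87.1 percent of all genes of H. burtonii. Glycogen synthase averaged 13.3 ± 2.81 FPKM in H. pseudoburtonii, a mean above that of 22.9 percent of its genes, against 505 ± 47.4 FPKM and 93.1 percent in H. burtonii. GPH1 stood above 28.9 percent of genes in H. pseudoburtonii and above 89 percent in H. burtonii, and GLC3 above 14 percent and 65.6 percent. The trehalase gene NTC1 was at 64.8 ± 7.35 FPKM in H. pseudoburtonii and at 248 ± 20.4 FPKM in H. burtonii. For these 4 genes the 0 min libraries of the species did not overlap. These are levels of 1 strain each, from gene models and library series of their own, and they were not tested.

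**Figure D1:**
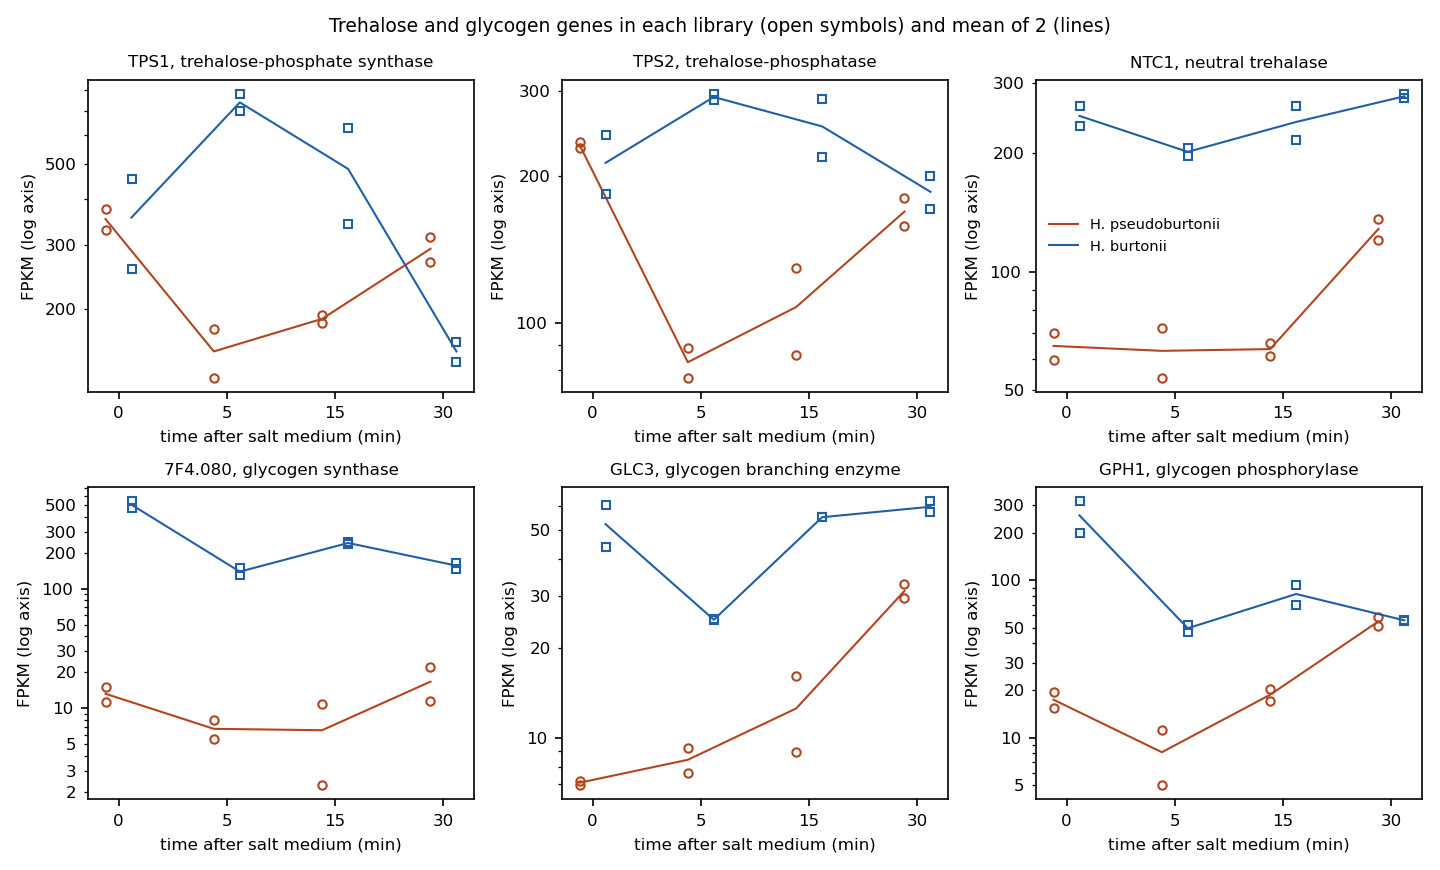
FPKM (log axis) of the 6 genes at 0, 5, 15 and 30 min, with H. pseudoburtonii (circles, red) left of H. burtonii (squares, blue). Open symbols are the 2 libraries of a time and lines join their means. TPS1 and TPS2 of H. pseudoburtonii are lowest at 5 min, and GPH1 of the species meets at 30 min near 55 FPKM.

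TPS1, the synthase of trehalose-6-phosphate, fell within 5 min in H. pseudoburtonii and was below its 0 min level in H. burtonii only at 30 min. The H. pseudoburtonii gene (TBIG004877, chromosome 6, 1221630 to 1223069) had 377 and 329 FPKM at 0 min, 130 and 176 at 5 min, 183 and 193 at 15 min and 316 and 270 at 30 min. All 4 libraries of 5 and 15 min lay below those of 0 and 30 min, and the libraries of 30 min lay just under those of 0 min. TPS1 fell by 1.21 (SE 0.19, limma adjusted p = 0.0115, -1.33 relative to the median of all genes) at 5 min and by 0.90 (SE 0.19, adjusted p = 0.0194, -1.01 relative to the median) at 15 min, and at 30 min it was not called (-0.27). Both calls were lost without 0 min replicate 1 (-1.12 at 5 min and -0.80 at 15 min) or replicate 2 (-1.31 and -1.0), and that of 15 min also without 15 min replicate 1 (-0.86).

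The H. burtonii TPS1 gene (TBIG000677, chromosome 1, 1329843 to 1331279) had 258 and 455 FPKM at 0 min, 699 and 777 at 5 min, 342 and 627 at 15 min and 144 and 163 at 30 min. Its 5 min libraries were the highest of the 8 and its 30 min libraries the lowest, while those of 0 and 15 min overlapped. At 5 min the log2 change was 1.10 (SE 0.34, adjusted p = 0.0531) and was not called. The settings that called it included those without 0 min replicate 2 (1.51), without 15 min replicate 1 or 2 (1.10 each), and with median-ratio (1.07) or quantile scaling (1.13). A fit with the replicate number as a block also called it (1.10). At 15 min the change was 0.43 and not called, with -0.0038 without 15 min replicate 2. At 30 min TPS1 fell by 1.16 (SE 0.34, adjusted p = 0.0241, -1.72 relative to the median). This call was lost without 0 min replicate 2 (-0.75) and without 30 min replicate 1 (-1.07) or 2 (-1.25). Between 15 and 30 min the gene fell by 1.59 (SE 0.34, adjusted p = 0.0198), a call that was lost without 15 min replicate 2 (-1.16) or 30 min replicate 1 (-1.51) or 2 (-1.68). TPS1 thus held its lowest mean at 5 min in H. pseudoburtonii (153 ± 33.1 FPKM) and its highest mean at 5 min in H. burtonii (738 ± 55.6 FPKM).

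TPS2, the phosphatase of the next step, followed TPS1 in H. pseudoburtonii and did not pass the test at any time in H. burtonii. In H. pseudoburtonii (TBIG002067, chromosome 2, 2243433 to 2246123) it had 236 and 229 FPKM at 0 min, 77.3 and 89.0 at 5 min, 130 and 85.9 at 15 min and 158 and 180 at 30 min. The libraries of every later time lay below both 0 min libraries, and those of 5 and 15 min overlapped. TPS2 fell by 1.47 (SE 0.22, limma adjusted p = 0.00922, -1.59 relative to the median) at 5 min and by 1.13 (SE 0.22, adjusted p = 0.0149, -1.23 relative to the median) at 15 min. Without 0 min replicate 1 these values were -1.45 and -1.11 and not called, and without replicate 2 they were -1.49 and -1.15 and not called. At 30 min the change was -0.46 and not called (-0.85 relative to the median), but median-ratio scaling gave -0.86 and a call.

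In H. burtonii TPS2 (TBIG002371, chromosome 3, 44292 to 46958) had 184 and 243 FPKM at 0 min, 295 and 287 at 5 min, 219 and 288 at 15 min and 200 and 172 at 30 min. The 5 min libraries lay above those of 0 min, and the other times overlapped with 0 min. The log2 changes were 0.46 at 5 min (adjusted p = 0.142), 0.25 at 15 min (-0.11 with median-ratio scaling) and -0.19 at 30 min (0.01 without 0 min replicate 2, and -0.70 and called with median-ratio scaling). Over the 8 libraries of a species, log2 levels of TPS1 and TPS2 correlated at r = 0.925 in H. pseudoburtonii and at r = 0.928 in H. burtonii. This is a description of 8 libraries that share their depth and their times.

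The trehalase gene found by the product name is NTC1, named after the neutral trehalase of Candida albicans, and it rose late in H. pseudoburtonii. There (TBIG002780, chromosome 3, 1821725 to 1824292) it had 70.0 and 59.6 FPKM at 0 min, 53.8 and 72.1 at 5 min, 66.0 and 61.2 at 15 min and 120 and 136 at 30 min. The first 3 times overlapped and both 30 min libraries lay above them. At 30 min NTC1 had risen by 0.98 (SE 0.22, limma adjusted p = 0.0114, 0.58 relative to the median), and between 15 and 30 min by 1.00 (SE 0.22, adjusted p = 0.0256). Its changes at 5 min (-0.05) and 15 min (-0.02) were not called. The rise over 0 min lost its call with median-ratio (0.58) and quantile scaling (0.68) and without 0 min replicate 1 (1.09) or 2 (0.86) or 30 min replicate 2 (0.89). The rise over 15 min lost it with the same scalings (0.71 and 0.77), without 0 min replicate 1 or 2 (1.00 each), 15 min replicate 1 (1.05) or 30 min replicate 1 (1.08) or 2 (0.91).

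In H. burtonii NTC1 (TBIG002208, chromosome 2, 1717836 to 1720301) had 262 and 233 FPKM at 0 min, 206 and 196 at 5 min, 263 and 216 at 15 min and 281 and 275 at 30 min. No change of it was called, with log2 changes of -0.30, -0.05 and 0.17 at 5, 15 and 30 min. The value at 15 min was 0.03 without 0 min replicate 1 and 0.09 without 15 min replicate 2, and that at 30 min was -0.34 and -0.08 with median-ratio and quantile scaling. All 8 libraries of H. burtonii lay above all 8 of H. pseudoburtonii.

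Glycogen synthase, named 7F4.080 in the files, fell at every later time in H. burtonii. In H. pseudoburtonii (TBIG000894, chromosome 1, 2318959 to 2321064) it was low throughout and scattered, with 11.3 and 15.2 FPKM at 0 min, 7.97 and 5.52 at 5 min, 2.29 and 10.9 at 15 min and 11.5 and 22.0 at 30 min. Its log2 changes of -0.88, -1.18 and 0.26 at 5, 15 and 30 min (SE 0.63 each) were not called. The value at 15 min was -2.10 and called without 15 min replicate 2, and that at 30 min was -0.11 and -0.65 with median-ratio and quantile scaling and -0.18 without 30 min replicate 2.

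In H. burtonii the glycogen synthase gene (TBIG002616, chromosome 3, 545708 to 547813) had 472 and 539 FPKM at 0 min, 130 and 148 at 5 min, 248 and 236 at 15 min and 147 and 165 at 30 min. All later libraries lay below both of 0 min, and those of 15 min lay above those of 5 and 30 min. The gene fell by 1.85 (SE 0.16, limma adjusted p = 0.000729, -1.92 relative to the median) at 5 min, fell by 1.06 (SE 0.16, adjusted p = 0.00388, -1.45 relative to the median) at 15 min and fell by 1.69 (SE 0.16, adjusted p = 0.000222, -2.24 relative to the median) at 30 min. These 3 calls were kept under all 16 alternatives tried. The partial return between 5 and 15 min was also called (0.79, SE 0.16, adjusted p = 0.0171), as was the fall between 15 and 30 min (-0.63, SE 0.16, adjusted p = 0.0384). The return lost its call with median-ratio (0.46) and quantile scaling (0.53) and without 5 min replicate 1 (0.70) or 2 (0.89) or 15 min replicate 1 (0.76). The fall between 15 and 30 min lost it with no trend (-0.63) and without either 5 min library (-0.63 each), either 15 min library (-0.60 without replicate 1 and -0.66 without replicate 2) or either 30 min library (-0.55 and -0.71).

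GLC3, the glycogen branching enzyme, rose in H. pseudoburtonii and dipped at 5 min in H. burtonii. In H. pseudoburtonii (TBIG001224, chromosome 2, 35498 to 37630) it had 7.19 and 6.95 FPKM at 0 min, 9.27 and 7.61 at 5 min, 16.1 and 8.97 at 15 min and 32.9 and 29.5 at 30 min. Both 30 min libraries lay above all earlier ones, and the 5 and 15 min libraries lay above those of 0 min. At 30 min it had risen by 1.99 (SE 0.36, limma adjusted p = 0.00540, 1.60 relative to the median), a call kept under all 16 alternatives tried. Its changes at 5 min (0.22) and 15 min (0.70) were not called.

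In H. burtonii GLC3 (TBIG001362, chromosome 1, 2725204 to 2727315) had 43.9 and 60.7 FPKM at 0 min, 25.1 and 24.8 at 5 min, 55.3 and 55.1 at 15 min and 57.3 and 62.3 at 30 min. The 5 min libraries were the lowest of the 8, and those of the other times overlapped with 0 min. GLC3 fell by 1.02 (SE 0.21, adjusted p = 0.0150, -1.09 relative to the median) at 5 min and then rose by 1.11 (SE 0.21, adjusted p = 0.0125) between 5 and 15 min. The first call was lost without 5 min replicate 1 (-1.03) or 2 (-1.01), and the second without 5 min replicate 1 (1.12) or 2 (1.11) or 15 min replicate 1 (1.11). Its log2 changes from 0 min at 15 min (0.09) and 30 min (0.21) were not called and were -0.26 and -0.29 with median-ratio scaling, -0.20 and -0.24 with quantile scaling and -0.14 and -0.02 without 0 min replicate 1.

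GPH1, the phosphorylase that releases glucose-1-phosphate from glycogen, rose at 30 min in H. pseudoburtonii and fell at every later time in H. burtonii. The H. pseudoburtonii gene (TBIG002567, chromosome 3, 1246992 to 1249688) had 19.5 and 15.5 FPKM at 0 min, 11.2 and 5.03 at 5 min, 17.1 and 20.5 at 15 min and 58.2 and 51.6 at 30 min. The 5 min libraries were the lowest of the 8 and the 30 min libraries the highest. At 30 min GPH1 had risen by 1.60 (SE 0.38, limma adjusted p = 0.0149, 1.21 relative to the median). This call was lost with quantile scaling (0.99) and without 0 min replicate 1 (1.76) or 2 (1.45) or 30 min replicate 1 (1.52) or 2 (1.69). The log2 change at 5 min, -1.10, was not called (adjusted p = 0.123), but was -1.61 and called without 5 min replicate 1. At 15 min it was 0.10 and not called, with -0.0031 and -0.14 under median-ratio and quantile scaling, -0.06 without 0 min replicate 2 and -0.02 without 15 min replicate 2. The rise between 15 and 30 min (1.50, SE 0.38, adjusted p = 0.0401) lost its call under 11 of the 16 alternatives, among them both scalings (1.21 and 1.12), a pseudocount of 0.1 (1.55) and no filter (1.50), and without 0 min replicate 1 or 2 (1.50 each), 15 min replicate 1 (1.38) or 2 (1.63), or 30 min replicate 1 (1.42) or 2 (1.59).

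The H. burtonii GPH1 gene (TBIG005832, chromosome 8, 383900 to 386599) had 199 and 317 FPKM at 0 min, 47.0 and 52.3 at 5 min, 70.2 and 93.7 at 15 min and 56.1 and 55.3 at 30 min. Every later library lay below both of 0 min, and the 15 min libraries lay above those of 5 and 30 min. GPH1 fell by 2.32 (SE 0.25, adjusted p = 0.00165, -2.39 relative to the median) at 5 min, fell by 1.62 (SE 0.25, adjusted p = 0.00406, -2.01 relative to the median) at 15 min and fell by 2.15 (SE 0.25, adjusted p = 0.000538, -2.71 relative to the median) at 30 min. All 3 calls were kept under the 16 alternatives tried. At 30 min GPH1 averaged 54.9 ± 4.64 FPKM in H. pseudoburtonii and 55.7 ± 0.556 FPKM in H. burtonii. This was above its 0 min level in H. pseudoburtonii and below it in H. burtonii. The FPKM come from gene models and library series of their own, and whether the species had equal levels was not tested. In H. burtonii the log2 levels of GPH1 and glycogen synthase correlated at r = 0.974 over the 8 libraries, against r = 0.533 in H. pseudoburtonii, where glycogen synthase stayed at or below 22.0 FPKM.

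**Figure D2:**
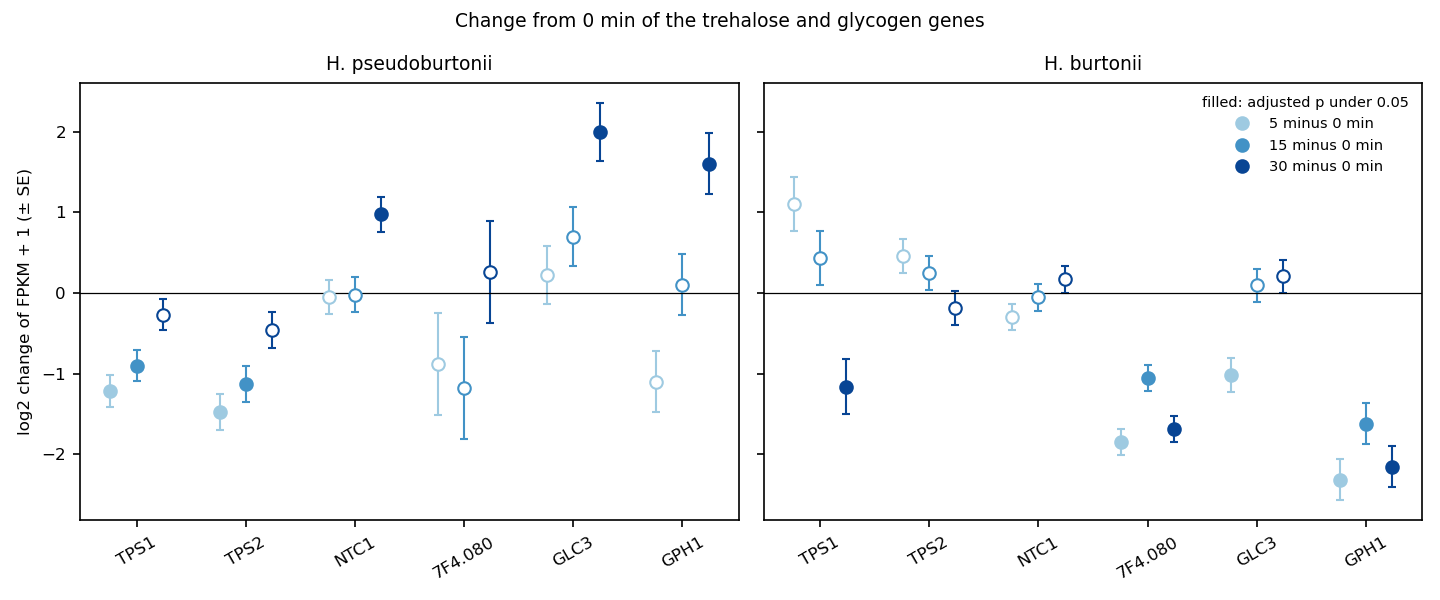
Log2 change from 0 min (of FPKM + 1, with the SE of the limma fit) of the 6 genes at 5, 15 and 30 min, in H. pseudoburtonii (left) and H. burtonii (right). Filled points have an adjusted p under 0.05. TPS1 and TPS2 lie below 0 at 5 and 15 min in H. pseudoburtonii, and glycogen synthase and GPH1 lie below 0 at all 3 times in H. burtonii.

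All 6 genes of each species passed the filter on low values and entered the test. In H. pseudoburtonii 2 of the 6 were lower at 5 min, beside 4.55 percent of all 5798 tested genes, and 2 were lower at 15 min, beside 7.8 percent. At 30 min 3 of the 6 were higher, beside 25.8 percent. With limma 0 were called higher at 5 or 15 min (0 also at an unadjusted p under 0.05), beside 4.17 and 9.9 percent of all genes, and 0 lower at 30 min (0 unadjusted), beside 9.69 percent. In H. burtonii 3 of the 6 were lower at 5 min, beside 11.1 percent of all 6047 tested genes, 2 at 15 min, beside 6.93 percent, and 3 at 30 min, beside 11.1 percent. With 0 called higher there at any time (1, 0 and 0 at an unadjusted p under 0.05), the 6 genes stood beside 11.2, 22.8 and 37 percent of all genes called higher. Their median log2 change was -0.99, -0.46 and 0.62 in H. pseudoburtonii, where that of all genes was 0.12, 0.10 and 0.39, and -0.66, 0.02 and -0.67 in H. burtonii, where that of all genes was 0.07, 0.39 and 0.56. Between successive harvests, limma called 0 of the 6 between 5 and 15 min in H. pseudoburtonii (1 higher and 0 lower at an unadjusted p under 0.05), beside 3.05 percent of all genes higher and 1.72 percent lower. GPH1 was called higher there without 5 min replicate 1 (1.71). Between 15 and 30 min 2 were higher, beside 11 percent, and 0 lower (0 unadjusted), beside 3.38 percent. In H. burtonii 2 were higher between 5 and 15 min, beside 16.1 percent, and 0 lower (0 unadjusted), beside 3.95 percent. Between 15 and 30 min 2 were lower, beside 6.73 percent, and 0 higher (0 unadjusted), beside 9.49 percent. Scaling moved these counts in some comparisons. In H. pseudoburtonii at 30 min the 6 genes gave 2 higher and 1 lower with median-ratio scaling, beside 15.2 and 17.1 percent of all genes. With quantile scaling they gave 1 higher and 0 lower, beside 14.4 and 15 percent. In H. burtonii at 5 min they gave 1 higher and 3 lower with either. Beside this, 11.6 percent of all genes were higher and 11.1 percent lower with median-ratio scaling, and 9.15 and 10.8 percent with quantile scaling. Of all genes called in H. pseudoburtonii at 5, 15 and 30 min, 47.8, 55.9 and 72.7 percent were higher, against 31.8, 45.7 and 47.2 percent with median-ratio scaling. In H. burtonii at 15 and 30 min 76.7 and 76.9 percent of the called genes were higher, against 48.7 and 48.3 percent with that scaling. Between 15 and 30 min it was 76.4 percent in H. pseudoburtonii and 58.5 percent in H. burtonii, against 44.7 and 37 percent with median-ratio scaling, and between 5 and 15 min in H. burtonii 80.3 percent, against 40.7 percent. The members were chosen with these data known, and the shares of all genes stand here in place of a test of the group.

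The difference between the species was tested directly in 1 fit over all 16 libraries and 3399 gene pairs. A negative difference means a lower change in H. pseudoburtonii than in H. burtonii. Pairs share a Swiss-Prot entry or else a name and may join paralogs. Of all called pairs 50.6, 28.3 and 35.5 percent were higher at 5, 15 and 30 min, against 39.1, 44.8 and 40.6 percent with median-ratio scaling. At 5 min 2 of the 6 pairs were called lower, beside 7.68 percent of all pairs, and 1 higher, beside 7.86 percent. TPS1 differed by -2.32 (SE 0.42, limma adjusted p = 0.00396), from changes of -1.21 in H. pseudoburtonii and 1.10 in H. burtonii. TPS2 differed by -1.93 (SE 0.32, adjusted p = 0.00208), and both of these calls were kept under all 24 alternatives tried. GLC3 differed by 1.24 (SE 0.37, adjusted p = 0.0414) at 5 min. That call was lost under 15 of the 24 alternatives, with values from 1.01 without H. burtonii 0 min replicate 2 to 1.37 without H. pseudoburtonii 5 min replicate 2, and 13 of the 16 libraries each ended it when left out, all but both of H. pseudoburtonii at 15 min and H. burtonii 0 min replicate 1. For GPH1 the difference at 5 min was 1.22 (adjusted p = 0.0861) and not called, but without H. pseudoburtonii 5 min replicate 2 it was 1.73 and called.

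At 15 min 2 pairs were lower, beside 14.9 percent of all pairs, and 1 higher, beside 5.88 percent. TPS2 still differed by -1.38 (SE 0.32, limma adjusted p = 0.0111), a call kept under every alternative tried. TPS1 differed by -1.34 (SE 0.42, adjusted p = 0.0434), which was not called with median-ratio (-1.08) or quantile scaling (-1.09) or with no trend (-1.34). It was not called either without any of 12 libraries, all but both of H. pseudoburtonii at 5 min, H. burtonii 0 min replicate 2 and H. burtonii 15 min replicate 1, with values from -0.90 without H. burtonii 15 min replicate 2 to -1.43 without H. pseudoburtonii 0 min replicate 2. GPH1 differed by 1.72 (SE 0.45, adjusted p = 0.0189), a call lost without H. pseudoburtonii 0 min replicate 2 (1.56), H. burtonii 0 min replicate 2 (1.39) or H. burtonii 15 min replicate 1 (1.52).

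At 30 min 4 of the 6 pairs were called, all higher in H. pseudoburtonii, beside 12.8 percent of all pairs, and 0 lower (0 also at an unadjusted p under 0.05), beside 23.3 percent. The difference of GPH1 was 3.76 (SE 0.45, limma adjusted p = 8.68e-05), from changes of 1.60 in H. pseudoburtonii and -2.15 in H. burtonii, and that of GLC3 was 1.79 (SE 0.37, adjusted p = 0.00296). Both calls were kept under all 24 alternatives. Glycogen synthase differed by 1.95 (SE 0.66, adjusted p = 0.0356) and NTC1 by 0.81 (SE 0.27, adjusted p = 0.0320). The call of glycogen synthase was lost with a pseudocount of 0.1 (1.97), with quantile scaling (1.35) and without H. pseudoburtonii 0 min replicate 1 (1.75) or 2 (2.15) or 30 min replicate 2 (1.51), or H. burtonii 0 min replicate 1 (2.04) or 2 (1.85) or 30 min replicate 1 (1.86) or 2 (2.03). That of NTC1 was lost with quantile scaling (0.76) and without H. pseudoburtonii 0 min replicate 2 (0.69) or 30 min replicate 2 (0.72), or H. burtonii 0 min replicate 1 (0.72) or 30 min replicate 1 (0.83) or 2 (0.79). TPS2 was not called (-0.27), nor was TPS1 (0.89), which was 1.30 and called without H. burtonii 0 min replicate 1. The median difference of all pairs was 0.05, -0.33 and -0.28 at 5, 15 and 30 min. The 3 differences share the 0 min libraries of both species.

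**Figure D3:**
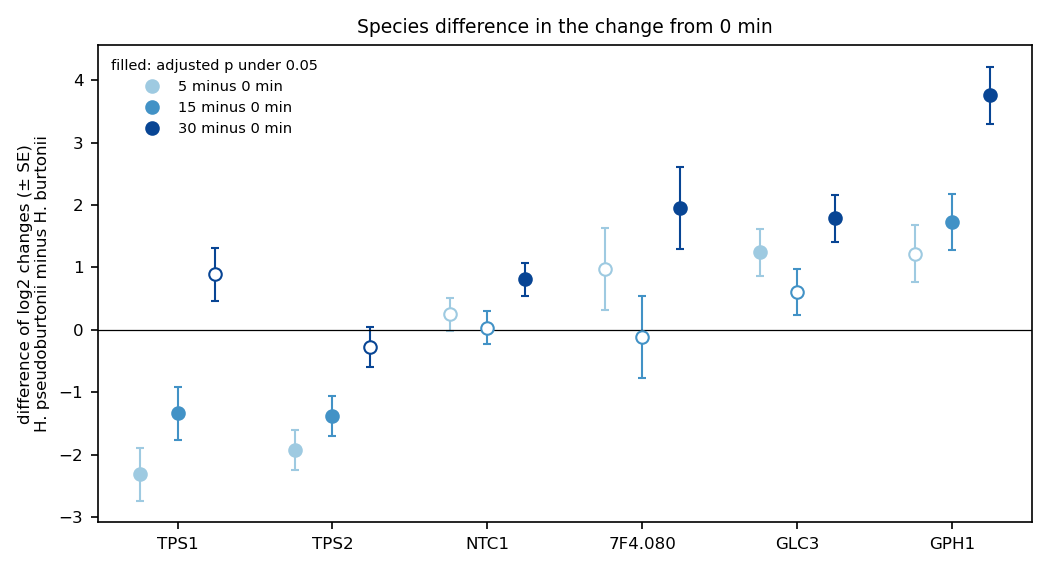
Difference between the species in the log2 change from 0 min (H. pseudoburtonii minus H. burtonii, with its SE) for the 6 genes at 5, 15 and 30 min. Filled points have an adjusted p under 0.05. TPS1 and TPS2 lie below 0 at 5 and 15 min, and GPH1 reaches 3.76 at 30 min.

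The other enzymes of both pathways and of their glucose precursors, 8 gene models in H. pseudoburtonii and 9 in H. burtonii, gave 2 lower and 0 higher, 1 and 1, and 0 lower and 3 higher at 5, 15 and 30 min in H. pseudoburtonii, beside 4.55, 7.8 and 9.69 percent of all genes lower and 4.17, 9.9 and 25.8 percent higher. At an unadjusted p under 0.05 the counts given as 0 were 1 higher at 5 min and 1 lower at 30 min. In H. burtonii they gave 3 lower and 0 higher, 2 and 1, and 1 lower and 0 higher, beside 11.1, 6.93 and 11.1 percent of all genes lower and 11.2, 22.8 and 37 percent higher, with 1 higher at 5 min and 0 higher at 30 min at an unadjusted p under 0.05. With median-ratio scaling the enzymes gave 2 higher and 1 lower at 30 min in H. pseudoburtonii, beside 15.2 and 17.1 percent of all genes. In H. burtonii they gave 0 higher and 4 lower at 15 min, beside 11.6 and 12.3 percent. At 30 min they gave 0 higher and 3 lower there, beside 16.9 and 18.1 percent. Quantile scaling gave the same counts at these times, beside 14.4 and 15, 9.18 and 10.3, and 16.3 and 16.7 percent. At 5 min in H. burtonii it gave 1 higher and 5 lower, beside 9.15 and 10.8 percent. At 15 min in H. pseudoburtonii it gave 1 higher and 0 lower, beside 8.4 and 7.85 percent. TPS3, a subunit of the trehalose synthase complex in S. cerevisiae, also fell in H. pseudoburtonii at 5 min. It had 199 and 166 FPKM at 0 min, 65.3 and 66.8 at 5 min, 122 and 95.1 at 15 min and 196 and 153 at 30 min. The 5 and 15 min libraries lay below those of 0 min, and those of 30 min overlapped with 0 min. TPS3 fell by 1.44 (SE 0.21, limma adjusted p = 0.00760) at 5 min, a call lost without 0 min replicate 1 (-1.31) or 2 (-1.57). At 15 min its change of -0.75 (adjusted p = 0.0474) was called, but not under 11 of the 16 alternatives. These were quantile scaling (-0.66), no filter and no trend (-0.75 each), and each of the 8 libraries left out (-0.93 to -0.57). In H. burtonii TPS3 had 106 and 157 FPKM at 0 min, 208 and 192 at 5 min, 193 and 254 at 15 min and 149 and 139 at 30 min. It rose by 0.77 there at 15 min (adjusted p = 0.0401), a call lost with median-ratio (0.41) and quantile scaling (0.60), with no trend (0.77), without either 5 min or 30 min library (0.77) and without 0 min replicate 1 (0.49) or 15 min replicate 2 (0.57). The difference between the species was -2.07 (SE 0.33, adjusted p = 0.00154) at 5 min and -1.52 (SE 0.33, adjusted p = 0.00735) at 15 min, and both calls were kept under all 24 alternatives.

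GDB1, the debranching enzyme that works with GPH1, is 1 gene model in H. pseudoburtonii and 2 adjacent models in H. burtonii, so that its values there are uncertain and it was not paired. In H. pseudoburtonii it had 4.31 and 3.41 FPKM at 0 min, 6.73 and 9.46 at 5 min, 10.8 and 8.50 at 15 min and 24.2 and 14.6 at 30 min, and all later libraries lay above those of 0 min. It had risen by 2.03 (SE 0.40, limma adjusted p = 0.00756) at 30 min, a call lost with quantile scaling (1.19) and without 0 min replicate 2 (1.90) or 30 min replicate 1 (1.69). The larger H. burtonii model (TBIG004092) had 183 and 186 FPKM at 0 min, 66.2 and 61.5 at 5 min, 128 and 104 at 15 min and 204 and 181 at 30 min. It fell by 1.52 (SE 0.17, adjusted p = 0.00192) at 5 min under every alternative. At 15 min its change of -0.67 (limma adjusted p = 0.0249) was called, but not under 5 of the 16 alternatives (-0.68 to -0.52). The other model (TBIG004093) lay between 7.36 and 16.1 FPKM in all 8 libraries. Of the genes for glycogenin, which starts glycogen chains, Gyg1 was low and lay between 1.79 and 13.9 FPKM in H. pseudoburtonii and between 3.02 and 8.74 in H. burtonii. The other, GLG2, averaged 13.9 ± 0.151 FPKM at 0 min in H. pseudoburtonii and 40.2 ± 1.19 FPKM in H. burtonii (SD, n = 2 each). It fell in H. burtonii at 5 min (-1.44, SE 0.23, adjusted p = 0.00734), a call lost without 5 min replicate 1 (-1.54) or 2 (-1.34).

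Upstream of both sugars, glucokinase GLK1, which phosphorylates glucose, was higher in H. pseudoburtonii and lower in H. burtonii at 30 min than at 0 min. In H. pseudoburtonii it had 513 and 539 FPKM at 0 min, 274 and 233 at 5 min, 447 and 508 at 15 min and 1051 and 997 at 30 min. In H. burtonii it had 715 and 1183 FPKM at 0 min, 1117 and 1073 at 5 min, 248 and 346 at 15 min and 189 and 183 at 30 min. At 30 min both libraries lay above those of 0 min in H. pseudoburtonii and below them in H. burtonii. GLK1 had risen by 0.96 (SE 0.15, limma adjusted p = 0.00297) in H. pseudoburtonii at 30 min and fell by 2.30 (SE 0.26, adjusted p = 0.000448) in H. burtonii, under every alternative tried. In H. burtonii it was also lower at 15 min (-1.65, limma adjusted p = 0.00417), under all 16 alternatives. It had fallen by 1.05 in H. pseudoburtonii at 5 min (adjusted p = 0.00695), a call lost without 0 min replicate 1 (-1.09) or 2 (-1.02). The difference at 30 min, 3.26 (SE 0.32, adjusted p = 2.53e-05), was called under every alternative tried. UGP1, which makes the UDP-glucose that both TPS1 and glycogen synthase use, lay between 656 and 1046 FPKM in H. pseudoburtonii and between 215 and 373 in H. burtonii. In H. pseudoburtonii UGP1 rose by 0.48 at 30 min (SE 0.15, limma adjusted p = 0.0422, 0.09 relative to the median). This call was lost under 7 of the 16 alternatives, among them median-ratio scaling (0.07), no trend (0.48) and each library of 0 min (0.51 without replicate 1 and 0.45 without replicate 2) or 30 min (0.47 and 0.49) left out. The phosphoglucomutase gene PGM2 lay between 221 and 345 FPKM in H. pseudoburtonii and between 194 and 230 FPKM in H. burtonii. PGM2 was called at no time against 0 min in either species.

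**Figure D4:**
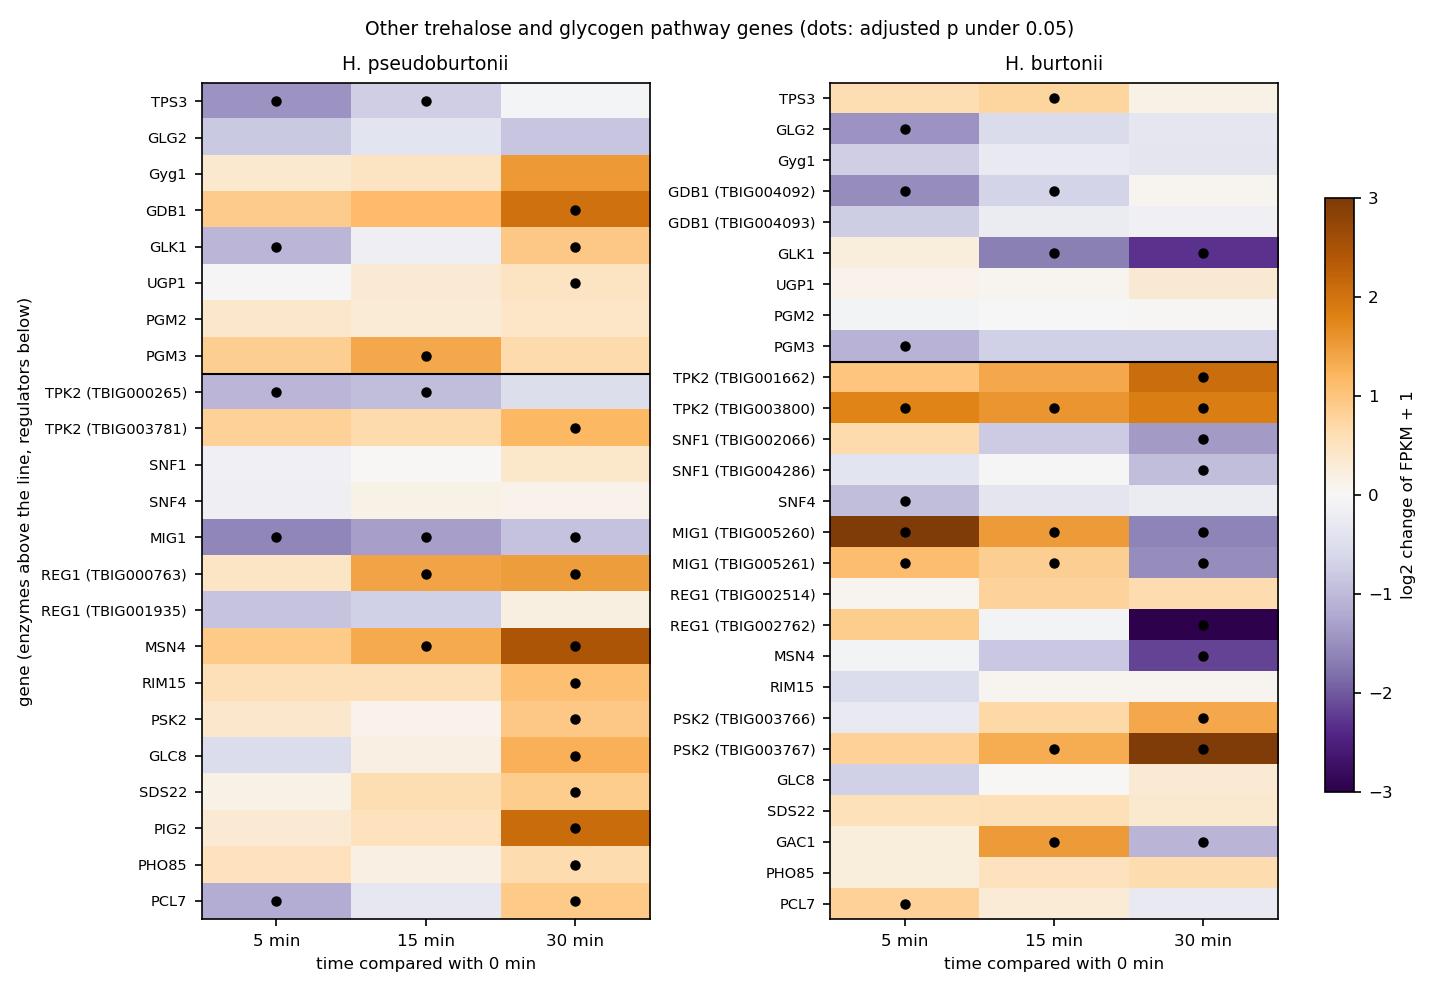
Log2 change from 0 min (colour, capped at 3 either way) of the other pathway genes at 5, 15 and 30 min in H. pseudoburtonii (left) and H. burtonii (right), enzymes above the line and regulators below it. Dots mark an adjusted p under 0.05. At 30 min 10 regulators are higher and 1 lower in H. pseudoburtonii, beside 25.8 and 9.69 percent of all its genes. With median-ratio scaling 4 are higher and 2 lower, beside 15.2 and 17.1 percent. In H. burtonii 4 are higher and 7 lower, beside 37 and 11.1 percent. With median-ratio scaling 3 are higher and 9 lower there, beside 16.9 and 18.1 percent.

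Among all genes whose mean reached 10 FPKM and whose log2 time means spanned 1 or more (2636 in H. pseudoburtonii, and in H. burtonii 3061 or, for TPS2, 3062), those with the most similar course over the 8 libraries were found for TPS1, TPS2 and GPH1 by Pearson's r of the log2 levels. For TPS1 of H. pseudoburtonii they were POF1 (r = 0.975), SOL1 (r = 0.968), annotated as similar to 6-phosphogluconolactonase, and an unnamed gene (TBIG005848, r = 0.967) with 4816 FPKM at 0 min, 366 at 5 min, 865 at 15 min and 2042 at 30 min on average. For TPS2 they were a zinc finger gene (YBJC_SCHPO, r = 0.975), an unnamed gene (TBIG001410, r = 0.969) and PFK2 (r = 0.966), the beta subunit of phosphofructokinase. For GPH1 they were an unnamed gene (TBIG000668, r = 0.991), PKP2 (r = 0.989), a pyruvate dehydrogenase kinase, and VPS27 (r = 0.988), of vacuolar protein sorting. In H. burtonii the nearest to TPS1 were an unnamed gene (TBIG003825, r = 0.995), the dicarboxylic amino acid permease gene DIP5 (r = 0.994) and ORM1 (r = 0.992), a regulator of sphingolipid synthesis. The nearest to TPS2 there were KAR2 (r = 0.984), the chaperone of the endoplasmic reticulum, the histone gene HTB1 (r = 0.981) and YAP1 (r = 0.978), an oxidative stress transcription factor. TPS2 itself did not pass the test at any time there. Its changes from 0 min, 0.46, 0.25 and -0.19, stayed within a smaller span than was asked of the other genes. GPH1 of H. burtonii was nearest to the invertase gene INV (r = 0.989), the acyl-coenzyme A oxidase gene POX1 (r = 0.977) and glycogen synthase (r = 0.974). INV averaged 1370 FPKM at 0 min, 340 at 5 min, 551 at 15 min and 414 at 30 min. All these genes were picked as the highest of many over only 8 libraries, so a high r is built into the choice. Shared regulation was not tested.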

How the data were processed

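The RNA-seq libraries of each species had a gene table with coordinates and FPKM, both as deposited by the authors. The tools named in the submitters' processing notes are Cufflinks 2.2.1, TopHat2 2.1.1, FastQC 0.11.8 and CASAVA 1.8.2. Their settings, the genome build, the annotation, the use of strand and the division of reads between overlapping or near-identical genes were not given in the sources used here.

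FPKM were turned into log2(FPKM + 1), with a pseudocount of 1. The filter was 1 FPKM or more in 2 or more libraries, which 5798 genes of H. pseudoburtonii and 6047 of H. burtonii passed. Each species was fitted with limma 3.58.1 (a group per time, a trend in the prior variance) under R 4.3.3, tables being read by data.table (version 1.17.8). Pairs of genes (3235 by accession, 180 by name, 3399 tested) entered a fit of all 16 libraries. Figures were drawn with matplotlib 3.10.9, after pandas 2.3.3 and numpy 2.4.6 (Python 3.11.15). The scripts were tested on simulated data. Named were all genes found by the rule, part of the other pathway genes called against 0 min, the 3 genes most alike to TPS1, TPS2 and GPH1, and their chromosome neighbours. Of the other pathway genes called against 0 min, SNF4, PHO85 and SDS22 were only counted. REG1, SNF1 and PSK2 were described only in H. burtonii at 30 min. PGM2, Gyg1 and the second GDB1 model, not called, were named after their values were seen. The regulators and enzymes come from a list by gene name, from which unrelated proteins of the same name were left out. The members and lists were chosen with earlier results of these data known. Alternatives were 2 scalings, 2 pseudocounts, 2 filters, no trend, a replicate block and each library left out in turn.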

Additional observations from a re-analysis of the deposited data

Results flagged for a closer look

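Each result here was singled out because the change from 0 min in H. pseudoburtonii differed from that in H. burtonii in a direct test of the difference (limma, adjusted p under 0.05 over 3399 pairs). Values are differences of log2 changes, H. pseudoburtonii minus H. burtonii. Of the 6 enzyme genes, TPS1 (-2.32), TPS2 (-1.93) and GLC3 (1.24) differed at 5 min, TPS1 (-1.34), TPS2 (-1.38) and GPH1 (1.72) at 15 min, and GPH1 (3.76), glycogen synthase 7F4.080 (1.95), GLC3 (1.79) and NTC1 (0.81) at 30 min.

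Of 14 other paired pathway genes, 2 were higher and 3 lower at 5 min, beside 7.86 and 7.68 percent of all pairs, 3 higher and 1 lower at 15 min, beside 5.88 and 14.9 percent, and 6 higher and 0 lower at 30 min (0 also at an unadjusted p under 0.05), beside 12.8 and 23.3 percent. The trehalose synthase subunit gene TPS3 differed by -2.07 at 5 min and -1.52 at 15 min. Glucokinase GLK1 differed by -1.31, 1.51 and 3.26 at the 3 times. PGM3, counted by its name among the precursor genes, differed by 1.94, 2.09 and 1.39. The stress transcription factor gene MSN4 differed by 2.16 at 15 min and 4.63 at 30 min. The cyclin gene PCL7 differed by -1.97 at 5 min and 1.19 at 30 min, and the kinase gene RIM15 by 1.12 and 1.03. The phosphatase regulator gene GLC8 differed by 0.96 at 30 min, a call that ended under 13 of the 24 alternatives, among them no trend (0.96) and leaving out any of 11 of the 16 libraries (0.78 to 1.12), all but the 15 min libraries of both species and H. burtonii 30 min replicate 2. The GLK1 call at 5 min was lost without H. pseudoburtonii 0 min replicate 1 (-1.34) or 2 (-1.27) or 5 min replicate 2 (-1.19), or H. burtonii 0 min replicate 1 (-0.94) or 5 min replicate 1 (-1.28) or 2 (-1.33). That of PGM3 at 30 min was lost with quantile scaling (0.95) and without H. burtonii 30 min replicate 1 (1.18). The RIM15 call at 5 min was lost without H. pseudoburtonii 0 min replicate 1 (1.13) or 2 (1.11) or 5 min replicate 1 (1.03) or 2 (1.21), or H. burtonii 0 min replicate 2 (0.96) or 5 min replicate 1 (1.28) or 2 (0.96). Its call at 30 min was lost without any H. pseudoburtonii library of 0 or 30 min (1.02 to 1.03), H. burtonii 0 min replicate 2 (0.87) or 30 min replicate 2 (0.91).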

How the results depend on the processing

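Each of the alternatives changed 1 choice, 16 of them within a species and 24 for the species difference. Of 31 called changes and differences of the 6 genes, 12 held under every alternative tried. Those with GPH1 and glycogen synthase of H. burtonii against 0 min, GLC3 of H. pseudoburtonii at 30 min, TPS1 and TPS2 differences at 5 min, the TPS2 difference at 15 min and GPH1 and GLC3 differences at 30 min are among the 12. The cause of the other changes was not tested. Where a library was left out, the fit also had fewer samples, and this was not separated from the weight of that library. In such a fit the lone library of a time is assumed to vary like those of the other times.

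With median-ratio scaling, H. pseudoburtonii gave -0.0031 for GPH1 at 15 min, -0.11 for glycogen synthase at 30 min and a called -0.86 for TPS2 at 30 min, and 0 of the 6 genes were called between 15 and 30 min. H. burtonii gave a called 1.07 for TPS1 at 5 min, -0.26 for GLC3 and -0.11 for TPS2 at 15 min, and -0.29 for GLC3, -0.34 for NTC1 and a called -0.70 for TPS2 at 30 min. Between 5 and 15 min NTC1 was at -0.089 there and 1 gene was called, and between 15 and 30 min GLC3 was at -0.032. The species difference at 15 min was 0.13 for glycogen synthase and an uncalled -1.08 for TPS1. Among all genes of H. pseudoburtonii, 5.78 percent were higher and 7.14 percent lower between 15 and 30 min with this scaling. Among those of H. burtonii the shares were 4.53 and 6.6 percent between 5 and 15 min.

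With quantile scaling, H. pseudoburtonii gave -0.14 for GPH1 at 15 min, and -0.65 for glycogen synthase and an uncalled 0.99 for GPH1 at 30 min. There 1 of the 6 genes was called at 30 min and 0 between 15 and 30 min. H. burtonii gave a called 1.13 for TPS1 at 5 min, -0.20 for GLC3 at 15 min, and -0.24 for GLC3 and -0.076 for NTC1 at 30 min. Between 5 and 15 min NTC1 was at -0.052 and 1 gene was called, and between 15 and 30 min GLC3 was at -0.036. The TPS1 difference at 15 min was an uncalled -1.09, and 2 differences were called at 30 min, beside 12.3 percent of all pairs higher and 20.4 percent lower. Among all genes of H. pseudoburtonii, 14.4 percent were higher and 15 percent lower at 30 min with this scaling. Between 15 and 30 min these shares were 5.9 and 7.07 percent. Among those of H. burtonii they were 5.56 and 5.99 percent between 5 and 15 min.

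A pseudocount of 0.1, no filter and the replicate block each left 1 gene called between 15 and 30 min in H. pseudoburtonii, and no trend left 1 in H. burtonii and an uncalled TPS1 difference of -1.34 at 15 min. With a pseudocount of 10 the GPH1 difference at 5 min was called (1.52), 5 differences were called at 5 min, and that of glycogen synthase at 15 min was 0.50. Same-numbered deviations correlated at -0.0917 to 0.038 in H. pseudoburtonii and -0.164 to 0.459 in H. burtonii, where 0, 5 and 15 min correlated with each other (0.162, 0.459 and 0.165) and 30 min with none of them over 0.1. The labels do not say what a number stands for, and since not every pair of times was over 0.1 the numbers were not taken as pairing the samples. With the replicate block TPS1 of H. burtonii at 5 min was called (1.10, limma adjusted p = 0.0186).

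Leaving out each library in turn gave these ranges. In H. pseudoburtonii at 5 min they were -1.44 to -0.99 for TPS1, -1.57 to -1.37 for TPS2, -1.61 to -0.59 for GPH1 and -0.26 to 0.16 for NTC1, with 0 to 3 genes called. At 15 min they were -1.0 to -0.80 for TPS1, -1.42 to -0.83 for TPS2, -0.056 to 0.26 for GPH1 and -0.14 to 0.092 for NTC1, with 0 to 3 called. At 30 min they were 1.45 to 1.76 for GPH1 and -0.18 to 0.70 for glycogen synthase, with 1 to 3 called. Between 5 and 15 min they were -1.22 to 0.63 for glycogen synthase and -0.18 to 0.24 for NTC1, with 0 to 1 called, and 0 to 3 were called between 15 and 30 min. In H. burtonii TPS1 ran from 0.69 to 1.51 at 5 min, from -0.0038 to 0.87 at 15 min and from -1.57 to -0.75 at 30 min. At 15 min GLC3 ran from -0.14 to 0.32 and NTC1 from -0.20 to 0.086. At 30 min GLC3 ran from -0.022 to 0.44 and TPS2 from -0.39 to 0.014. From 0 to 3 genes were called between 5 and 15 min and 0 to 2 between 15 and 30 min. Among the species differences GPH1 ran from 0.71 to 1.73 at 5 min and from 1.39 to 2.06 at 15 min. At 15 min TPS1 ran from -1.77 to -0.90, glycogen synthase from -1.04 to 0.80 and NTC1 from -0.11 to 0.17, with 1 to 3 called. At 30 min TPS1 ran from 0.48 to 1.30, with 2 to 4 called.

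Counts over all genes moved with the alternatives too, and every lowest count came from leaving out a library. At 5, 15 and 30 min 506, 1026 and 2055 genes of H. pseudoburtonii were called (lowest 100, 272 and 918) and 1348, 1798 and 2907 of H. burtonii (lowest 178, 913 and 1785). Between 5 and 15 min the counts were 277 (lowest 91) and 1214 (lowest 120), and between 15 and 30 min 831 (lowest 22) and 981 (lowest 240). Of the pairs, 528, 707 and 1227 were called (lowest 247, 407 and 885). Read depth was not known beyond the rough estimate, and for glycogen synthase, GLC3, GPH1 and GDB1 of H. pseudoburtonii, which lay under 60 FPKM in all libraries, it limits how firmly a change can be stated. The same limit holds for other low pathway genes. Among them are PIG2 (4.65 to 25.9 FPKM) and MSN4 (2.73 to 19.97) of H. pseudoburtonii and SNF1 TBIG002066 (2.45 to 13.6) of H. burtonii.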

Other observations

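Regulators of glycogen and trehalose metabolism known from S. cerevisiae, 15 gene models in H. pseudoburtonii and 18 in H. burtonii were tested. In H. pseudoburtonii 0 were higher and 3 lower at 5 min (4 higher at an unadjusted p under 0.05), 2 and 2 at 15 min, and 10 and 1 at 30 min, beside 4.17, 9.9 and 25.8 percent of all genes higher and 4.55, 7.8 and 9.69 percent lower. In H. burtonii 4 were higher and 1 lower at 5 min, 5 and 0 at 15 min (2 lower at an unadjusted p under 0.05), and 4 and 7 at 30 min, beside 11.2, 22.8 and 37 percent of all genes higher and 11.1, 6.93 and 11.1 percent lower. With median-ratio scaling these counts were 0 higher and 3 lower at 15 min and 4 and 2 at 30 min in H. pseudoburtonii. All genes there were 8.07 and 15.2 percent higher and 9.59 and 17.1 percent lower. Quantile scaling gave 3 and 2 there at 30 min, beside 14.4 percent of all genes higher and 15 percent lower. In H. burtonii median-ratio scaling gave 4 and 3 at 15 min and 3 and 9 at 30 min. The shares of all genes were 11.6 and 16.9 percent higher and 12.3 and 18.1 percent lower. Of the 5, 6 and 14 calls among all pathway genes other than the 6 described, enzymes included, at 5, 15 and 30 min in H. pseudoburtonii, 0, 0 and 3 held under all 16 alternatives. Without 0 min replicate 1 or without replicate 2 the counts were 0, 0 and 4. The count of 15 min was 3 when 15 min replicate 1, 30 min replicate 1 or 30 min replicate 2 was left out. That of 30 min was 4 without 30 min replicate 1 and 6 without replicate 2. Of the 8, 8 and 12 calls in H. burtonii, 3, 3 and 7 held. There the count at 5 min was 3 without either 5 min library, and at 15 min it was 5 without 0 min replicate 1 and 3 without 15 min replicate 2. MSN4, a transcription factor of the general stress response, had 19.8 and 19.97 FPKM at 30 min, against 2.73 and 2.88 at 0 min, in H. pseudoburtonii, and 6.58 and 9.50 at 30 min, against 33.6 and 45.6 at 0 min, in H. burtonii. It had risen by 2.46 (SE 0.38, limma adjusted p = 0.00294) in H. pseudoburtonii at 30 min and fell by 2.17 (SE 0.27, adjusted p = 0.000624) in H. burtonii, under every alternative tried. PIG2, which targets a phosphatase to glycogen synthase and has 1 gene model in H. pseudoburtonii, was 2.1 higher there at 30 min (SE 0.36, adjusted p = 0.00415). It was low, between 4.65 and 25.9 FPKM. Another targeting subunit gene, GAC1, was found in H. burtonii and was not paired with PIG2. GAC1 was 1.51 higher at 15 min (SE 0.28, adjusted p = 0.00783). It fell by 1.06 at 30 min (adjusted p = 0.0173), a call lost without 0 min replicate 2 (-0.93) or 30 min replicate 1 (-0.63). The kinase gene TPK2 (TBIG003800), a catalytic subunit of protein kinase A, rose at all 3 later times in H. burtonii (1.78, 1.59 and 1.86), and the glucose repressor gene MIG1 (TBIG005260) was 3.0 higher at 5 min (SE 0.38, adjusted p = 0.00264). These calls of PIG2, of GAC1 at 15 min, of TPK2 TBIG003800 and of MIG1 at 5 min were kept under all 16 alternatives. So were 30 min calls in H. burtonii of REG1 TBIG002762 (-2.97), PSK2 TBIG003767 (3.0) and SNF1 TBIG002066 (-1.37, at low levels of 2.45 to 13.6 FPKM). Each of these genes has another gene model there. At 30 min it was called lower for SNF1 (-0.94), called higher for PSK2 (1.38) and not called for REG1. The PSK2 models are 2 adjacent gene models on the same strand. Whether they are parts of 1 gene was not settled, so the values of PSK2 there are uncertain. TPK2 has other gene models. In H. burtonii TBIG001662 was called higher only at 30 min (2.06), a call lost under 8 of the 16 alternatives. In H. pseudoburtonii TBIG000265 was called lower at 5 and 15 min (-1.04 and -0.95), calls lost under 3 and 2 alternatives. TBIG003781 was called higher there at 30 min (1.19), a call lost under 6 alternatives. MIG1 appears as 2 adjacent gene models in H. burtonii, so its values there are uncertain. At 30 min both models had fallen, by 1.59 (TBIG005260, adjusted p = 0.0109, lost without 30 min replicate 1 with -1.28) and by 1.51 (TBIG005261, adjusted p = 0.00152, under all 16 alternatives). In H. pseudoburtonii MIG1 fell by 1.58, 1.32 and 0.91 at the 3 times, and each call was lost without 0 min replicate 1 (-1.61, -1.36 and -0.95) or 2 (-1.54, -1.29 and -0.88), the last also without 30 min replicate 1 (-1.01) or 2 (-0.81).

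TPS1, TPS2 and GPH1 each keep a neighbour between the species. TPS1 lies beside hrf1 on the opposite strand, 915 bases away in H. pseudoburtonii and 553 in H. burtonii. In H. pseudoburtonii hrf1 was called higher at 15 and 30 min (0.81 and 0.87), and in H. burtonii at no time. The gene on the other side of TPS1 is unnamed and on the opposite strand in both. In H. pseudoburtonii it is TBIG004878, 788 bases away, called lower at 5 and 15 min (-1.92 and -1.78). In H. burtonii it is TBIG000676, 239 bases away, called higher at 5 min (0.86). TPS2 lies between PAB1, the poly(A)-binding protein gene, and EHT1, an ester synthase gene, in both. EHT1 changed in opposite directions, with -0.44, -0.91 and -1.03 at 5, 15 and 30 min in H. pseudoburtonii, where those of 15 and 30 min were called, and 1.28, 1.13 and 1.10 in H. burtonii, all called. GPH1 lies beside KEX1, a carboxypeptidase gene, in both. KEX1 was not called in H. pseudoburtonii at 30 min (-0.05), and rose by 1.01 in H. burtonii (limma adjusted p = 0.00465). On the other side of GPH1 lie unnamed genes, TBIG002568 in H. pseudoburtonii and TBIG005831 in H. burtonii, called at no time against 0 min. The alternatives were not run on these neighbours.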
